A study of Malus domestica with 4 samples.

Results

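Alcohol dehydrogenase (ADH) carries out the last step of ethanolic fermentation: it reduces acetaldehyde, which pyruvate decarboxylase makes from pyruvate, to ethanol, and it returns NAD+ to glycolysis when respiration lacks oxygen. In Arabidopsis the gene ADH1 is induced by low oxygen, and in ripening apples ADH also turns aldehydes into the alcohols from which fruit esters are made. The loci described here are 6 of the 63514 gene models of the apple genome in the count tables. The study lists them as alcohol dehydrogenase 1, a name given by likeness to the Arabidopsis gene.

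The 6 loci were chosen by 2 measured values. One is the ratio 0.8ox/0.4ox, on which the loci had been listed as different between the oxygen levels. The other is the share of own reads, taken as the 0.8ox count in the table with the shifted sample over the 0.8ox count in the table with 0.4ox, which had to reach 10%. Both are therefore given as descriptions, and no test result is read from them. The ratios against T0 and after the shift share the 0.8ox or the 0.4ox count with this choice.

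The RNA came from the cortex of Granny Smith apples, an apple cultivar, as slices about 1 cm thick from the equatorial part of the fruit, and all fruit had been kept at 1°C. The groups are fruit moved out of 0.4 kPa into 0.8 kPa oxygen (shifted), for which the labels give no day, fruit after 24 days at 0.8 kPa oxygen (0.8ox), fruit after 24 days at 0.4 kPa oxygen (0.4ox), and fruit in normoxia after cold acclimation (T0). A normoxic sample stored for 24 days was not analysed here, so days in the cold and low oxygen cannot be told apart in a ratio against T0. The study made the shift after more than 24 days, so days in storage and the shift cannot be told apart in shifted/0.8ox. Every condition has 1 value per gene, pooled by Cuffdiff from its libraries, of which the methods give 3 for each of 0.8ox, 0.4ox and T0. For shifted the methods give no number of libraries, and 3 were assumed. Values per library were not used here, and fewer cells and less RNA per cell cannot be told apart in such tissue samples.

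The estimated counts summed to 6471124 in 0.8ox, 5445598 in 0.4ox and 9553180 in T0, and in the separate table with the shifted sample to 4865029 in shifted and 5363827 in 0.8ox. Each log2 ratio was taken after scaling to equal totals, and levels are given in CPM, the estimated count scaled to the same total in every condition. The SE of a ratio, written after ±, follows from the variances that Cuffdiff modelled for the counts, and a gene was called at an adjusted p under 0.001 (two-sided normal test, Benjamini-Hochberg adjustment over all genes tested in the table). The deposited part of the variance for uncertain read assignment was 0 for all 6 loci in every condition, so the SE holds no error from dividing reads among gene copies.

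The loci differed in how many of their reads were their own. In the tables of 0.8ox, 0.4ox and T0, between 810 and 957 genes of a condition lay midway between 0 and the value of a single read (within 0.0006 counts), as a division of reads among copies gives, and in the table with the shifted sample 0 genes did. The methods state that TopHat2 was set to leave out reads with several mapping positions, which leaves no such reads to divide. The steps in the tables of 0.8ox, 0.4ox and T0 go against this setting, so calling the missing part of a count shared reads is a reading of the values and not of the methods. For the 15171 genes that reached 50 counts in 0.8ox, the count from undivided reads had a median of 101% of the estimated count and a 99th percentile of 119%. The table with the shifted sample gives each 0.8ox read more weight, by a mean factor of 1.19, so a gene with only its own reads lies near 119% and not near 100%.

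MDP0000680997 had the largest share of own reads of the 6, 84.1%, with 557 counts from undivided reads against an estimated 662 in 0.8ox. MDP0000494273 had 47.7%, MDP0000523942 23.3%, MDP0000045577 21.0% and MDP0000152612 16.9%. MDP0000305929 stood just inside the limit of the choice, at 10.1%, from 7.62 undivided counts and an estimated 75.3. Measured against 119% in place of 100%, the share was 70.8% for MDP0000680997 and 8.51% for MDP0000305929. For MDP0000680997 most of the estimated count was thus found again among undivided reads, while for the other 5 loci most of it was not. None of the 6 loci had the same set of counts as another gene in any of the 4 tables.

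An ADH locus outside the limit is MDP0000594290, which the study measured by RT-qPCR. Its primers are shown because they are the only sequences in the sources used here that belong to an ADH locus by identifier.
MDP0000594290 forward: ggaagcactgaagccatgat
MDP0000594290 reverse: ctccacgacagagggaatgt
Both primers are 20 bases long and written 5′ to 3′, with no base marked. In the count tables this locus had an estimated 1191 counts in 0.8ox and 2.64 from undivided reads, a share of 0.222%. Nearly all of its estimated count was thus missing among undivided reads.

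**Figure D1:**
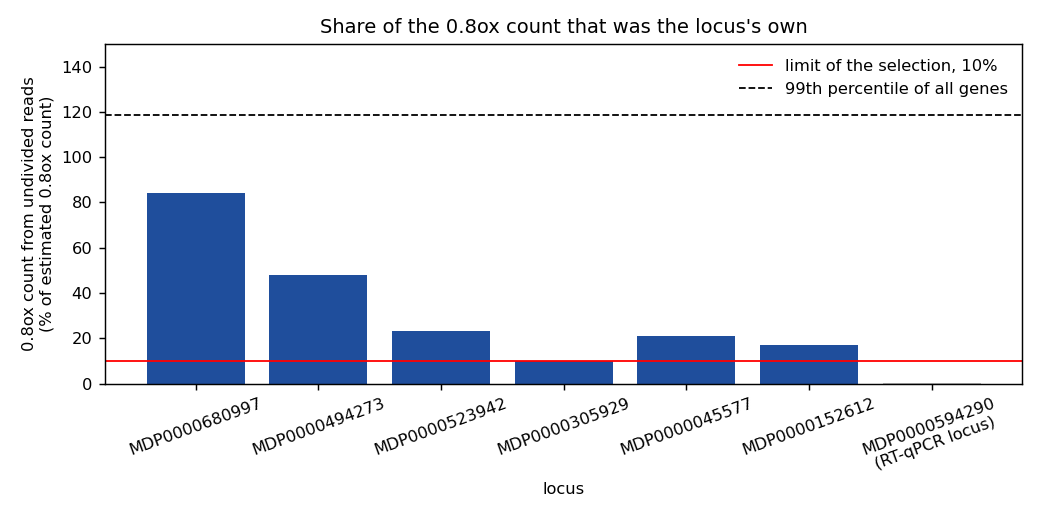
Share of the 0.8ox count that was the locus's own, in percent of the estimated 0.8ox count, for the 6 loci (blue) and for MDP0000594290 (grey, at 0.222%). The bars run from 84.1% for MDP0000680997 to 10.1% for MDP0000305929, all at or above the red line of the selection at 10% and all below the dashed line at 119%, the 99th percentile of all genes.

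Against T0, all 6 loci were higher at both oxygen levels. In 0.8ox/T0 6 of 6 were called higher, beside 6.69% of all 29909 genes tested, and in 0.4ox/T0 6 of 6, beside 7.69% of 29939 genes. The median log2 ratio of the 6 was 3.55 in 0.8ox/T0 and 4.66 in 0.4ox/T0, where the medians of all genes tested were -0.06 and -0.08. Both ratios share the T0 count, and since the loci were chosen on 0.8ox/0.4ox, the gap between the ratios is no separate result. The 0.8ox and 0.4ox counts in these ratios also entered the choice. The shares of all genes are thus no matched background, and the calls and adjusted p against T0 are no independent evidence. Scaling to equal totals raised every log2 ratio by 0.56 in 0.8ox/T0 and by 0.81 in 0.4ox/T0. Without it 790 genes were called higher and 7952 lower in 0.8ox/T0, against 2001 and 2974 with it, and 801 and 10587 in 0.4ox/T0, against 2303 and 2749.

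MDP0000680997 rose most against T0. Its level was 102 CPM in 0.8ox, 302 in 0.4ox and 2.83 in T0, from estimated counts of 662, 1645 and 27.0. The modelled variation was 8.26% of the count in 0.8ox, 11.2% in 0.4ox and 19.2% in T0. Beside it the levels in 0.8ox and in 0.4ox lay far above that in T0. Its log2 ratio was 5.18 ± 0.30 in 0.8ox/T0 and 6.74 ± 0.32 in 0.4ox/T0, a 36.2-fold and a 107-fold rise (adjusted p = 4.06e-63 and 1.53e-94). In 0.4ox/T0, 74 of the 29939 genes tested had a higher log2 ratio.

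MDP0000494273 and MDP0000523942 followed and could not be told apart within their errors. MDP0000494273 had 56.0 CPM in 0.8ox, 130 in 0.4ox and 3.33 in T0. Its log2 ratio was 4.07 ± 0.29 in 0.8ox/T0 and 5.28 ± 0.30 in 0.4ox/T0, a rise of 16.8-fold and 38.9-fold. MDP0000523942 had 59.9 CPM in 0.8ox, 132 in 0.4ox and 4.03 in T0. This locus had a log2 ratio of 3.89 ± 0.27 in 0.8ox/T0 and 5.03 ± 0.28 in 0.4ox/T0. The ratios of these 2 loci differed by 0.18 in 0.8ox/T0 (95% interval -0.59 to 0.95) and by 0.25 in 0.4ox/T0 (-0.56 to 1.06), so the error allows differences in either direction. Most of the estimated count of both was not found among undivided reads, and whether they share reads with each other was not tested.

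MDP0000305929 rose as well, and had few reads in T0. It had 11.6 CPM in 0.8ox, 24.5 in 0.4ox and 1.25 in T0, and the T0 value rests on 12.0 estimated counts with a modelled variation of 28.9%. The log2 ratio was 3.21 ± 0.45 in 0.8ox/T0 and 4.29 ± 0.45 in 0.4ox/T0. Its SE was the largest of the 6 in both comparisons.

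MDP0000045577 stood apart through its estimated level in T0. As for MDP0000305929 and MDP0000152612, most of its estimated 0.8ox count was not found among undivided reads. Undivided counts of T0 and 0.4ox were not analysed here, so how much of these levels and rises is the locus's own was not tested. MDP0000045577 had 125 CPM in 0.8ox, 331 in 0.4ox and 35.4 in T0. Its T0 level rested on 338 estimated counts, where the other 5 loci had between 12.0 and 38.5. The log2 ratio was 1.82 ± 0.17 in 0.8ox/T0 and 3.23 ± 0.21 in 0.4ox/T0, a 3.53-fold and a 9.36-fold rise (adjusted p = 3.54e-24 and 1.89e-52).

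MDP0000152612 had the lowest rise and the fewest counts in 0.8ox and 0.4ox. Its level was 6.24 CPM in 0.8ox, 17.3 in 0.4ox and 2.03 in T0. The log2 ratio was 1.62 ± 0.40 in 0.8ox/T0 and 3.09 ± 0.38 in 0.4ox/T0, with adjusted p = 3.26e-04 and 1.12e-14. The call in 0.8ox/T0 was lost without scaling between the conditions, where the log2 ratio was 1.06 (adjusted p = 0.0184, in a range of 1.24e-11 to 0.0184 over the alternatives).

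**Figure D2:**
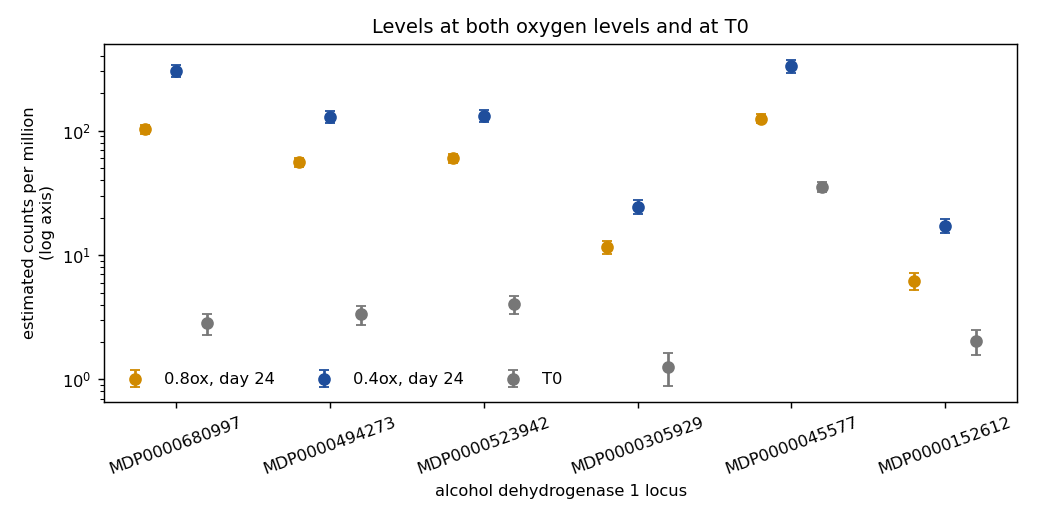
Levels of the 6 loci in 0.8ox, 0.4ox and T0, as CPM on a log axis; points are the authors' pooled values and bars the modelled SD of the count. In every locus 0.4ox is highest and T0 lowest, and the T0 level of MDP0000045577, 35.4, lies above the other 5, which lie between 1.25 and 4.03 (counts are not divided by gene length, so heights are to be read within a locus).

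The loci had the same order in both ratios against T0, MDP0000680997 first, then MDP0000494273, MDP0000523942, MDP0000305929, MDP0000045577 and MDP0000152612. Both ratios share the T0 count, and the choice narrows the spread of 0.8ox/0.4ox, so the shared order is no separate result. Between the first and the last the log2 ratios differed by 3.55 ± 0.50 in 0.8ox/T0 and by 3.65 ± 0.50 in 0.4ox/T0. Of the neighbours in this order, MDP0000680997 lay above MDP0000494273 beyond the error, by 1.11 in 0.8ox/T0 (95% interval 0.29 to 1.92) and by 1.46 in 0.4ox/T0 (0.60 to 2.32). MDP0000305929 lay above MDP0000045577, by 1.39 in 0.8ox/T0 (0.44 to 2.34) and by 1.06 in 0.4ox/T0 (0.09 to 2.04). The intervals of the other 3 neighbouring pairs included 0 in both comparisons. These intervals are descriptive, since the pairs were formed from the measured order.

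The share of each locus in the summed estimated count of the 6 differed between the low oxygen samples and T0. MDP0000680997 held 28.3% of the summed estimated count of the 6 loci in 0.8ox and 32.2% in 0.4ox, against 5.79% in T0. MDP0000045577 held 34.6% in 0.8ox and 35.4% in 0.4ox, against 72.4% in T0. Together the 6 loci had 361 CPM in 0.8ox, 937 in 0.4ox and 48.9 in T0. These shares rest on the estimated counts. Among the undivided reads of 0.8ox MDP0000680997 held 55.4% and MDP0000045577 16.9% of the sum, so which locus is largest in 0.8ox depends on how reads are counted. Shares among undivided reads of 0.4ox and T0 were not analysed here, and how much of the change in make-up against T0 they would show was not tested.

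**Figure D3:**
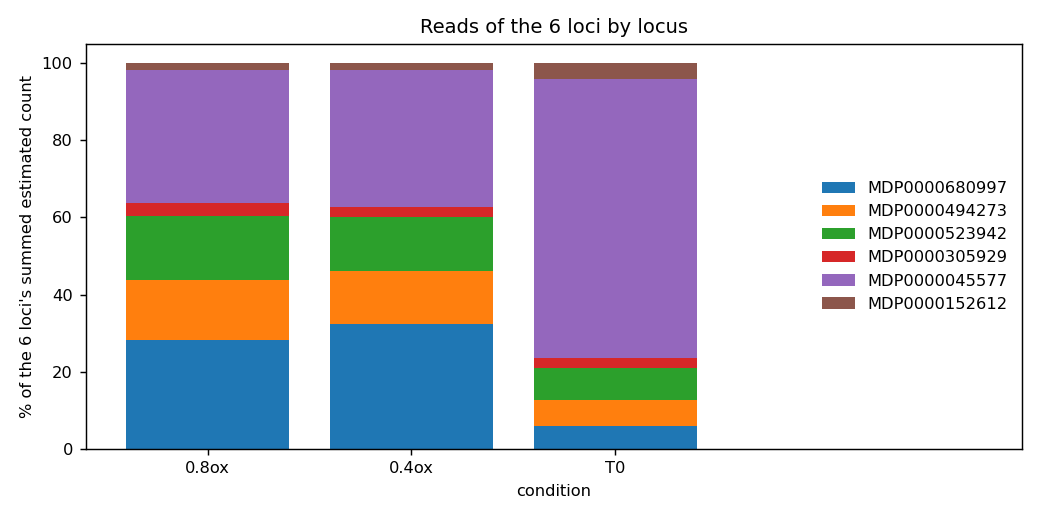
Share of each of the 6 loci in their summed estimated count, in percent, in 0.8ox, 0.4ox and T0 (counts not divided by gene length). MDP0000045577 fills 34.6% of the bar of 0.8ox, 35.4% of that of 0.4ox and 72.4% of that of T0, and MDP0000680997 fills 28.3% in 0.8ox, 32.2% in 0.4ox and 5.79% in T0.

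Between the oxygen levels, the contrast the loci were chosen on, all 6 lay lower in 0.8ox. All 6 passed the threshold of the calls, which the choice fixed beforehand, and 2.42% of all 26934 genes tested did so in this direction. Nothing is read from this count. The log2 ratio 0.8ox/0.4ox was -1.56 ± 0.20 for MDP0000680997, -1.47 ± 0.30 for MDP0000152612 and -1.41 ± 0.20 for MDP0000045577. It was -1.21 ± 0.20 for MDP0000494273, -1.14 ± 0.20 for MDP0000523942 and -1.07 ± 0.25 for MDP0000305929. Without scaling every ratio was closer to 0, at -1.31 to -0.83, and 844 genes were called higher and 398 lower, against 414 and 652 with equal totals. With equal totals the level in 0.8ox was 33.9% to 47.5% of that in 0.4ox. The lowest and the highest ratio lay 0.49 apart, a spread that the choice narrows, since it leaves out loci with a weaker difference between the oxygen levels. Of the rise above T0 seen in 0.4ox, 27.6% for MDP0000152612 to 44.7% for MDP0000305929 was present in 0.8ox.

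**Figure D4:**
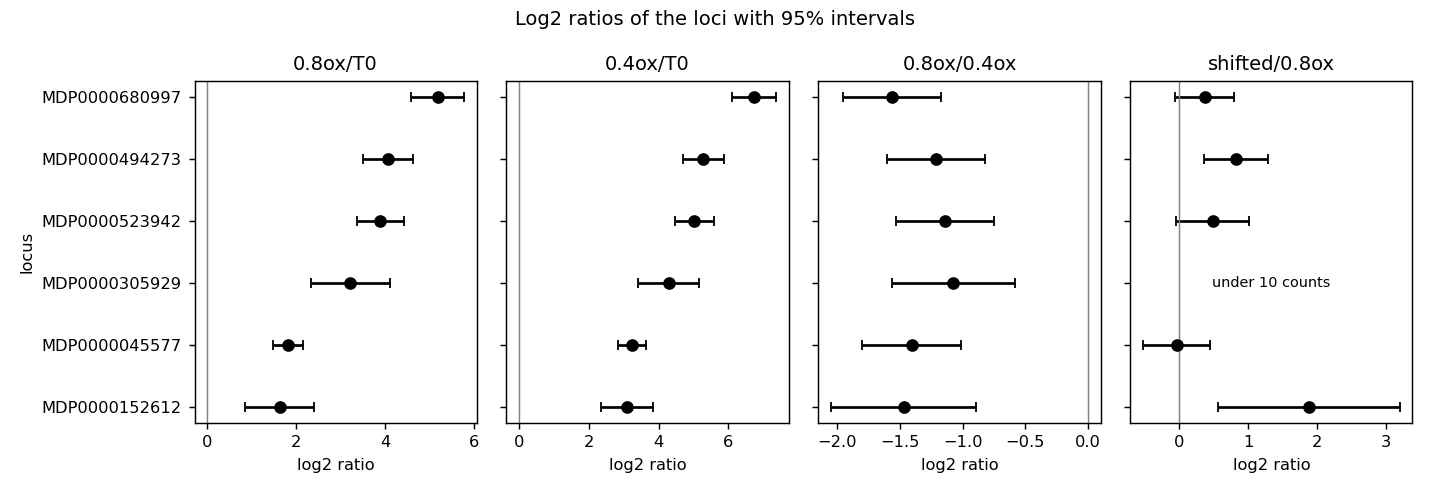
Log2 ratios of the 6 loci in 0.8ox/T0, 0.4ox/T0, 0.8ox/0.4ox and shifted/0.8ox, with 95% intervals from the deposited variances. The ratios against T0 run from 1.62 to 5.18 and from 3.09 to 6.74, those of 0.8ox/0.4ox lie between -1.56 and -1.07, and after the shift the intervals of MDP0000494273 and MDP0000152612 lie above 0.

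In shifted fruit none of the loci was called different from fruit after 24 days at 0.8 kPa. Shifted fruit had been stored longer, so this comparison is not matched in time. MDP0000305929, with 9.27 counts in shifted and 7.62 in 0.8ox, was under the minimum of 10 counts, and of the 5 loci tested 0 were called, beside 1.54% of the 20669 genes called higher and 0.416% called lower. At an unadjusted p under 0.05, 2 of the 5 passed, and the exact test of edgeR called 0 of the 5. The 5 loci had a median log2 ratio shifted/0.8ox of 0.48, and the median of all genes tested was 0.15. The table itself is already scaled over its libraries, and without the further scaling to equal totals the median of all genes was 0.01 and every log2 ratio lower by 0.14. In that form 237 genes were called higher and 123 lower, against 319 and 86 with equal totals.

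The values in this table come from undivided reads. MDP0000680997 had 134 CPM in shifted and 104 in 0.8ox, a log2 ratio of 0.37 ± 0.22, or 0.23 as deposited. The 95% interval of -0.06 to 0.79 leaves room for no difference and for a level well above that of 0.8ox. MDP0000494273 had 56.97 CPM in shifted and 32.2 in 0.8ox. Its log2 ratio of 0.82 ± 0.24, or 0.68 as deposited, had an adjusted p of 0.0150, short of the threshold of 0.001, and the adjusted p lay between 6.34e-08 and 0.0799 over the alternatives.

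MDP0000523942 had 23.5 CPM in shifted and 16.9 in 0.8ox, with a log2 ratio of 0.48 ± 0.27. MDP0000045577 had 30.8 in shifted and 31.6 in 0.8ox, with a log2 ratio of -0.04 ± 0.25. MDP0000152612 had the highest log2 ratio, 1.88 ± 0.67, from 22.8 counts in shifted and 6.82 in 0.8ox, with an adjusted p of 0.0775. The 95% interval thus included 0 for 3 of the 5 loci, and the 2 with larger ratios did not reach the threshold. The log2 ratios 0.8ox/0.4ox of the same loci were between -1.56 and -1.14, and both sets of ratios rest on the 0.8ox libraries. The ratios 0.8ox/0.4ox come from estimated counts and are the contrast of the choice, so their sizes cannot be set against those after the shift.

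**Figure D5:**
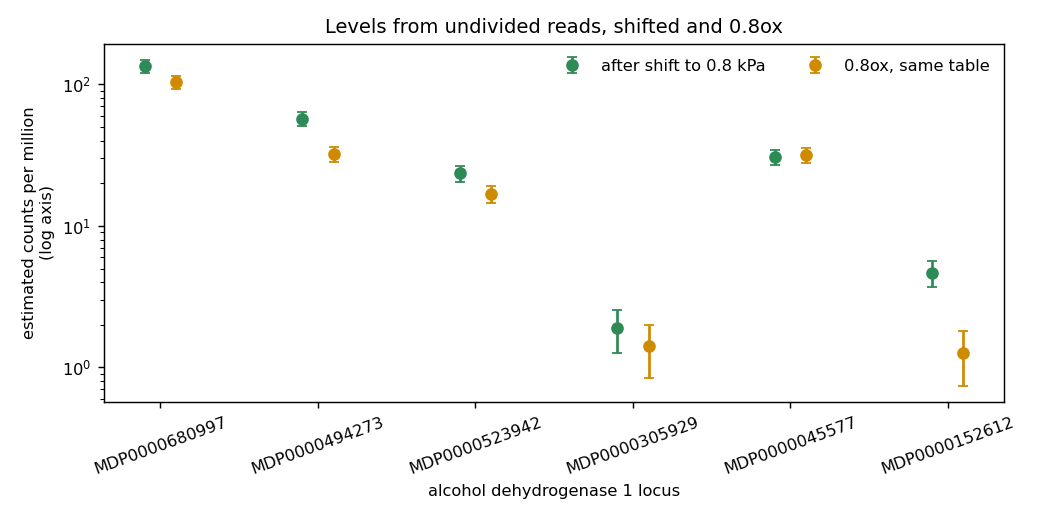
Levels of the 6 loci in shifted and in 0.8ox of the same table, as CPM on a log axis, from reads that were not divided among copies; bars are the modelled SD of the count. MDP0000045577 (30.8 in shifted, 31.6 in 0.8ox) lies close in both samples, and MDP0000680997 (134 and 104) lies further apart. By ratio MDP0000494273 (56.97 and 32.2) and MDP0000152612 (4.69 and 1.27, from few counts) lie furthest apart, short of the threshold.

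Other genes of the same pathways, taken from those that the study names by identifier in its text and its tables, rose in part. Of 20 such genes, 18 had enough counts for a test against T0. In 0.8ox/T0, 12 were called higher and 1 lower, beside 6.69% and 9.94% of all genes tested. The numbers in 0.4ox/T0 were also 12 and 1, beside 7.69% and 9.18% of all genes tested. Their median log2 ratio was 1.62 in 0.8ox/T0 and 1.94 in 0.4ox/T0. The list holds genes that the study had picked as hypoxia genes, in part on these samples, and is no independent evidence of a direction. It leaves out ACC synthase and ACC oxidase, ethylene genes of the RT-qPCR whose transcripts the study reports as negatively affected by hypoxia. They were not analysed here, so the counts in each direction hold for the listed genes only.

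Pyruvate decarboxylase MDP0000800945, with 86.8% own reads, which makes the acetaldehyde that ADH reduces, had a log2 ratio of 5.99 ± 0.27 in 0.8ox/T0 and 6.61 ± 0.43 in 0.4ox/T0. In 0.4ox/T0 this was close to the 6.74 of MDP0000680997. The lactate dehydrogenases, which reduce pyruvate to lactate in the other branch of fermentation, rose less, MDP0000568449 by 2.35 ± 0.22 in 0.8ox/T0 and 2.53 ± 0.24 in 0.4ox/T0 on the log2 scale. Between the oxygen levels pyruvate decarboxylase had a log2 ratio 0.8ox/0.4ox of -0.62 ± 0.49 and MDP0000568449 -0.17 ± 0.21 (0.08 without scaling), and neither was called.

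The ADH locus of the RT-qPCR, MDP0000594290, was called higher at both oxygen levels, with a log2 ratio of 0.69 ± 0.16 in 0.8ox/T0 and 1.13 ± 0.20 in 0.4ox/T0 from an estimated count that was nearly all missing among undivided reads. Without scaling between the conditions its log2 ratio was 0.13 in 0.8ox/T0 and 0.32 in 0.4ox/T0, so the rise rests on the scaling to equal totals. Its level was 184 CPM in 0.8ox, 250.2 in 0.4ox and 114 in T0. MDP0000899824 and MDP0000312969, further loci with the name alcohol dehydrogenase 1, had at most 1.99 estimated counts in any condition and were not tested. The 3 aldehyde dehydrogenases of the list, which oxidise acetaldehyde or other aldehydes to acids, were called higher in 0.8ox than in 0.4ox, with log2 ratios 0.8ox/0.4ox between 1.03 ± 0.20 for MDP0000166143 and 1.15 ± 0.24 for MDP0000257083, beside 1.54% of all genes called higher. This direction is opposite to that of the 6 ADH loci. The study names these aldehyde dehydrogenases for this direction. It also reports other aldehyde dehydrogenase genes that differed in the same direction as ADH. Its text gives no identifiers for those genes, and they were not analysed here. The 3 listed genes therefore do not stand for aldehyde dehydrogenases in general. MDP0000166143 and MDP0000257083 had under 1% own reads. The third, MDP0000211987, had 64.3% and was the 1 gene of the list called in shifted/0.8ox, with a log2 ratio of -0.98 ± 0.22. In that comparison 0.416% of all genes tested were called lower.

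Of the 4 listed genes of sugar supply and glycolysis, 4 were called higher than T0 at both oxygen levels. Of all genes tested, 6.69% were called higher in 0.8ox/T0 and 7.69% in 0.4ox/T0. Among the 4 are the beta-amylase models MDP0000764433 and MDP0000142134, which the study lists under the same primer pair. MDP0000764433 had 0% own reads and MDP0000142134 59.8%, and whether they share reads with each other was not tested. Sucrose synthase MDP0000250070, which splits sucrose, had a log2 ratio of 3.35 ± 0.18 in 0.8ox/T0 and 3.29 ± 0.22 in 0.4ox/T0. MDP0000131308 is phosphofructokinase in the primer list of the study and a putative alpha-amylase-like gene in its text, so its identity is unsettled. It had 3.48 ± 0.28 in 0.8ox/T0 and 4.98 ± 0.29 in 0.4ox/T0, and its log2 ratio 0.8ox/0.4ox was -1.51 ± 0.20, within the range of the ADH loci. After the shift it had a log2 ratio shifted/0.8ox of 0.59 ± 0.23 and was not called. The group VII ethylene response factors are the transcription factors that switch on ADH1 in Arabidopsis when oxygen is low. Of the 6 listed, 4 were called higher and 1 lower in 0.8ox/T0, beside 6.69% and 9.94% of all genes tested. In 0.4ox/T0, 3 were called higher and 1 lower, beside 7.69% and 9.18%. The 1 of them with the highest ratios, MDP0000288465, had a log2 ratio of 3.32 ± 0.22 in 0.8ox/T0, 4.49 ± 0.24 in 0.4ox/T0 and -1.17 ± 0.20 in 0.8ox/0.4ox. The 1 called lower, MDP0000308922, had a log2 ratio of -1.07 ± 0.18 in 0.8ox/T0 and -1.13 ± 0.21 in 0.4ox/T0. MDP0000403580 was called in neither comparison. MDP0000848905, called higher in both, had 0% own reads.

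The genes most like the 6 loci were sought over 3 log2 ratios, 0.8ox/T0, 0.4ox/T0 and shifted/0.8ox, as the smallest Euclidean distance to the median of the 5 loci that have all 3. Among 7023 genes with at least 100 counts in 0.4ox and at least 50% own reads, the nearest was MDP0000807055, at a distance of 0.35, with log2 ratios of 3.59, 4.88 and 0.55 beside 3.89, 5.03 and 0.48 for the loci. It had 316 estimated counts in 0.8ox, 655 in 0.4ox and 38.9 in T0. The next were MDP0000312359 at 0.63 and MDP0000252113 at 0.65, with log2 ratios 0.8ox/0.4ox of -0.36 and -0.58. The loci themselves lay between 0 and 3.30 from their median. The files do not pair these identifiers with names. MDP0000375455, the reference gene of the RT-qPCR, was itself called higher than T0, with log2 ratios of 1.19 ± 0.17 in 0.8ox and 1.22 ± 0.19 in 0.4ox. A ratio to this gene would thus be lower than the scaled ratios by that much. Without scaling between the conditions its log2 ratios were 0.63 in 0.8ox and 0.41 in 0.4ox.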

How the data were processed

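Per the labels and the methods, the authors sequenced RNA of apple cortex as single 50-base reads on an Illumina HiSeq2000, cleaned the reads with ERNE, aligned them to the apple genome, version 1.0, by TopHat2 on a Bowtie2 index, with multiply mapped reads stated as removed, and counted them with Cuffdiff (versions not given in the sources used here). Deposited were estimated counts, 1 per gene and condition, with their modelled variance in squared counts, in 4 tables. The smallest steps of the counts show that the tables of T0, 0.4ox and 0.8ox are scaled between the libraries of a condition only, and the table with the shifted sample over the libraries of both conditions. Equal totals had been planned for every table on the assumption that none was scaled, and are kept as the main scaling.

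The log2 ratio was divided by the SE from the undivided variances of both counts and read as a normal deviate, where 1 of the conditions reached 10 counts and neither was at 0, and called when the adjusted p was under 0.001, as in the study. This follows the statistic of Cuffdiff. Scripts used Python 3.11.15, numpy 2.4.6, pandas 2.3.3, scipy 1.17.1 and edgeR 4.0.16. The test was also run on simulated counts drawn with the deposited variances. Such a run cannot show whether those variances fit the libraries, and nothing is read from it. The genes named are the 6 loci, hypoxia genes taken from those the study names by identifier in its text and tables, and the 3 genes of nearest pattern. The ethylene genes of the RT-qPCR, ACC synthase and ACC oxidase, were left out. The members and lists were chosen with earlier results of these data known. Alternatives were other scalings, variances, minimum counts and thresholds, a pseudocount of 1 and the exact test of edgeR on counts rounded to whole numbers, with the dispersion from the deposited variances. No replicate was left out, since each condition has 1 value. RefSeq's gene table for apple matched 0 of the identifiers, so no position or sequence of the loci is given, and the tissue label was not checked against marker genes.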

Additional observations from a re-analysis of the deposited data

How the results depend on the processing

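All 6 loci were called higher than T0 in 0.8ox and in 0.4ox under each alternative, except that MDP0000152612 was not called in 0.8ox/T0 without scaling and was not tested there with a minimum of 50 counts. The sign of each tested log2 ratio was the same under all alternatives. After the shift, 2 loci (MDP0000494273 and MDP0000152612) were called with the variance divided by the 3 libraries, 1 (MDP0000494273) at an adjusted p under 0.05, and 0 under the other alternatives, including the locus with at least 50% own reads alone. Over all genes in 0.4ox/T0, 2303 were called higher and 2749 lower, against 5554 and 6573 with the divided variance, 4641 and 5466 at an adjusted p under 0.05, and 801 and 10587 without scaling. In 0.8ox/T0 the numbers were 2001 and 2974, against 5076 and 6673, 4169 and 5570, and 790 and 7952 in the same order. In 0.8ox/0.4ox they were 414 and 652, against 1928 and 2414, 1047 and 1445, and 844 and 398. In shifted/0.8ox they were 319 and 86, against 1956 and 545 with the divided variance, 886 and 262 at an adjusted p under 0.05, and 237 and 123 without scaling. Without scaling, the log2 ratios 0.8ox/0.4ox of the loci lay between -1.31 and -0.83. No paired analysis was possible because each condition has 1 pooled value. The smallest log2 ratio called was 0.61 in 0.8ox/T0, 0.72 in 0.4ox/T0 and 0.95 in shifted/0.8ox.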
